A study of Mus musculus with 5 samples.

Results

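Genes of the cytosolic chaperonin and of the heat shock chaperone system were compared between a cultured cytotoxic T cell clone and freshly activated T cells that carry the same antigen receptor. The group holds 45 genes, chosen by function but with earlier results of these data known. They are subunits of the chaperonin and of prefoldin, the HSP70, HSP110, HSP90 and small heat shock proteins, their co-chaperones, the mitochondrial chaperones and the heat shock factors. Among the probe sets paired with exactly 1 gene symbol, the one with the highest mean signal over the 5 arrays stood for its gene. Such a probe set named 42 of the 45 genes, out of 18193 genes named on the array; Hsp90ab1, Ptges3 and Hsf1 were not analysed here. One further gene, Hspa1a, lay below the filter on dim probe sets (a mean signal of 88.2), which left 41 of the 12446 genes tested.

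Chaperones bind newly made or unfolded proteins and help them reach their working shape. The chaperonin, called CCT or TRiC, is a double ring that encloses actin, tubulin and other clients in its cavity, and prefoldin hands such clients to it. HSP70 proteins bind short greasy stretches of a chain in a cycle driven by ATP, started by J-domain proteins and ended by nucleotide exchange factors of the HSP110 and BAG families. HSP90 acts later, on kinases and hormone receptors, with co-chaperones that load clients and pace its ATP cycle. Activated T cells make protein at a high rate, and many of these genes can be induced by heat shock factor 1.

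The clone arrays came from 3 separately thawed vials of G9C8, a CD8 T cell clone specific for an insulin B chain peptide and kept in vitro. The transgenic arrays came from spleen cells of 2 NOD.G9C8 mice, on the NOD/LtJ background, 4 to 8 weeks of age, whose transgene encodes the receptor of G9C8; its promoter is not given in the sources used here. All 5 cultures received peptide (10 µg/ml) over 3 days and a rest in IL2 (5 IU/ml) over 2 more days, so that both groups had been activated and neither was a resting control. The vials are repeats of 1 clone, so that the spread among them is that of culture and handling.

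The arrays differed in other respects that bear on what follows. All 8 T cell markers with a probe set passed the filter, and 4 of them, Cd3d, Cd8a, Cd8b1 and Cd2, were lower in clone, with none higher. Cd3e, Cd3g, Thy1 and Cd5 were not called. Of all genes tested, 21.7% were called lower and 22.0% higher. Cd8a gave 8252.1 to 9187.6 in clone and 15499.8 and 12884.3 in transgenic cells, and Cd4 was dim (32.1 to 50.6 over all arrays). The summed signal of 18 myeloid markers was 1692 to 2184 in clone and 9511 and 15901 in the first and second transgenic culture. Of the 12 that passed the filter, 11 were lower in clone. Among these, Cd14, Fcer1g, Tyrobp, Fcgr3, Cybb and Ccl6 had every clone signal below the filter level of 88.2. They passed only through their transgenic signals, so that their lower calls are no separate support. Lyz2 gave 237.1 to 326.9 and 3496.8 and 5548.8, whereas the macrophage complement gene C1qa stayed between 9.7 and 18.5 on every array. Summed NK cell markers (261 to 317 in clone, 1757 and 1937 in transgenic cells) and dendritic cell markers (544 to 621 and 906 and 1416) were also separated. The NK cell sum was mostly Eomes, while Ncr1 and Klra8 were dim and Klre1 was not called. B cell and plasma cell markers (1066 to 1329 and 1833 and 1714) were separated, with 2 genes lower in clone and 1 higher. The lower ones, Cd79b and Sdc1, had every clone signal below 88.2. The higher one, Ebf1, had both transgenic signals below it. Granulocyte and mast cell markers (445 to 579 and 592 and 703) were separated with no gene called. Erythroid and platelet markers (1245 to 1409 and 1963 and 2661) were separated mostly through Pf4 (64.0 to 107.8 and 931.5 and 1626.4). In that list Gata1 was called higher in clone. The control probe set for the 3′ part of 18S ribosomal RNA gave 377 to 514 on the clone arrays and 22088 and 7602 on the transgenic ones. The ratio of 3′ to 5′ signal of the actin control was 1.06 to 1.14 in clone and 1.05 and 1.05 in transgenic cells. That of the Gapdh control was 0.819 to 0.869 and 0.763 and 0.775. Both ratios were slightly higher on every clone array. These are bulk samples, in which fewer cells of a type and less RNA per cell cannot be told apart.

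Promoter windows of 6 genes are shown first, because heat shock factors bind repeats of the letters GAA and TTC, spaced by other bases. The genes were picked with their values known, to show windows with and without such letters in genes that were higher, lower and not called. Windows run from 250 bases before to 50 after an annotated start, 5′ to 3′ on the gene's strand, from RefSeq on build GRCm38.p6. Capitals mark matches to GAANNTTC or TTCNNGAA, each of which reads the same on both strands; a match is a description of the letters and not a binding site.
Hspe1, chr1:55087898-55088197, plus strand: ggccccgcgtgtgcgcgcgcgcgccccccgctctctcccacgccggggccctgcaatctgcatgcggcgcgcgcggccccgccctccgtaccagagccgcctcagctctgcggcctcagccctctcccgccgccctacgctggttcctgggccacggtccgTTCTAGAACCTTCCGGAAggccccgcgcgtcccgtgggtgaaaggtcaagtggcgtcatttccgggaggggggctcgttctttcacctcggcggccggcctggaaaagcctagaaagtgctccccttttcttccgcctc
Hsph1, chr5:149636266-149636565, minus strand, 1 of 2 windows: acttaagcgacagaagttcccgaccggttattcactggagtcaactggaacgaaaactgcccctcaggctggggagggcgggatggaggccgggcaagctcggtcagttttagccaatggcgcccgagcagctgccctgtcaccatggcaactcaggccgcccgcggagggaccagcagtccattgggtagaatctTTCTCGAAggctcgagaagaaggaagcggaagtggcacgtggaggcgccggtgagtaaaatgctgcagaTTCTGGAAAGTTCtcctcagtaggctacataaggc
Hspa1b, chr17:34959189-34959488, minus strand: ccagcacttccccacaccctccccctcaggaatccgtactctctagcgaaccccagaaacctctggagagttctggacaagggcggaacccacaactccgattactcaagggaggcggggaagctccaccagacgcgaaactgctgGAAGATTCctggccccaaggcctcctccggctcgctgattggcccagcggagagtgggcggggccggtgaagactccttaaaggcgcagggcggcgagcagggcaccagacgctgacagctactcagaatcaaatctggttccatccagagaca
Bag3, chr7:128523333-128523632, plus strand: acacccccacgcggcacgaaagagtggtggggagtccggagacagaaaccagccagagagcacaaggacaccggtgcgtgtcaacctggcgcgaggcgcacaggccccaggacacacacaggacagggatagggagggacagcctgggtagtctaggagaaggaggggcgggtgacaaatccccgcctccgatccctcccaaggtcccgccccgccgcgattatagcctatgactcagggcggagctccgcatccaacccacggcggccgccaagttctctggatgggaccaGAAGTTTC
Dnajb4, chr3:152193796-152194095, minus strand, 1 of 2 windows: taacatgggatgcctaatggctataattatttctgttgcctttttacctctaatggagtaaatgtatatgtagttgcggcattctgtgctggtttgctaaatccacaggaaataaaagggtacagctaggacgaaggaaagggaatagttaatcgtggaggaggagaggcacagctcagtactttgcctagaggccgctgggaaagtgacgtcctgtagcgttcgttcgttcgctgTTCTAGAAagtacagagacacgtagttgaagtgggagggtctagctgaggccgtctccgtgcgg
Cct8, chr16:87495820-87496119, minus strand: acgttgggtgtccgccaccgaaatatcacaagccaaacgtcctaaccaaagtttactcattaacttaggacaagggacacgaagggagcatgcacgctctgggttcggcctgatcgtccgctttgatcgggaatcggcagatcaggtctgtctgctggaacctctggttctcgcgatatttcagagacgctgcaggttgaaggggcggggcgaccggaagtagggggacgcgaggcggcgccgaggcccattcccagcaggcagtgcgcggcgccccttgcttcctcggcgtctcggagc

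Hspe1 and Hspd1 lie head to head: one of the 2 Hspd1 windows shares 285 bases with that of Hspe1, and both hold the same run of 18 bases made of overlapping matches. Over all genes, 15.1% of 32851 windows held a match to either form. Among the chaperone genes, 36 had 1 or more windows, and 17 of their 47 windows, from 15 genes, held one. The longer form GAANNTTCNNGAA, with 3 units, was searched on both strands and overlaps the shorter ones. It was found in 0.603% of all windows and in 6 of these 47, from 4 genes, Dnajb6, Hspd1, Hspe1 and Hsph1. The windows of Dnajb6 overlap each other, as do those of Hsph1, so that windows with a match are not all separate stretches of DNA. The genes shown above were picked so that matches stood in windows of genes higher in clone (Hspe1), lower (Hsph1, Bag3, Dnajb4) and not called (Hspa1b). Cct8, which was higher, had none in this window. Whether matches go with a direction of change was not tested.

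Of the 41 genes tested, 18 were higher in clone, 5 were lower and 18 were not called, by limma at an adjusted p under 0.05. Over all 12446 genes tested, 22.0% were called higher and 21.7% lower, 43.8% in all. In shares, 43.9% of the chaperone genes were higher and 12.2% lower, a description of genes chosen with earlier results of these data known. Their median difference was 0.19 on the log2(signal + 20) scale, clone minus transgenic, beside -0.01 for all genes tested, and the median size of a difference was 0.38, beside 0.39. Changes were mostly small: only Pfdn1 and Hspa9 were called at 2-fold or more higher and only Dnajb4 and Bag3 at 2-fold or more lower, 4 of 41, where 14.7% of all genes were called at that size. Bag3 was the 1 gene whose mean passed the filter level in a single group, so its presence among the lower genes is no separate support for the count. The clone arrays lay wholly above or wholly below the transgenic arrays for 28 of the 41 genes, including all 23 called ones; over all genes tested, 64.5% were separated in that way.

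**Figure D1:**
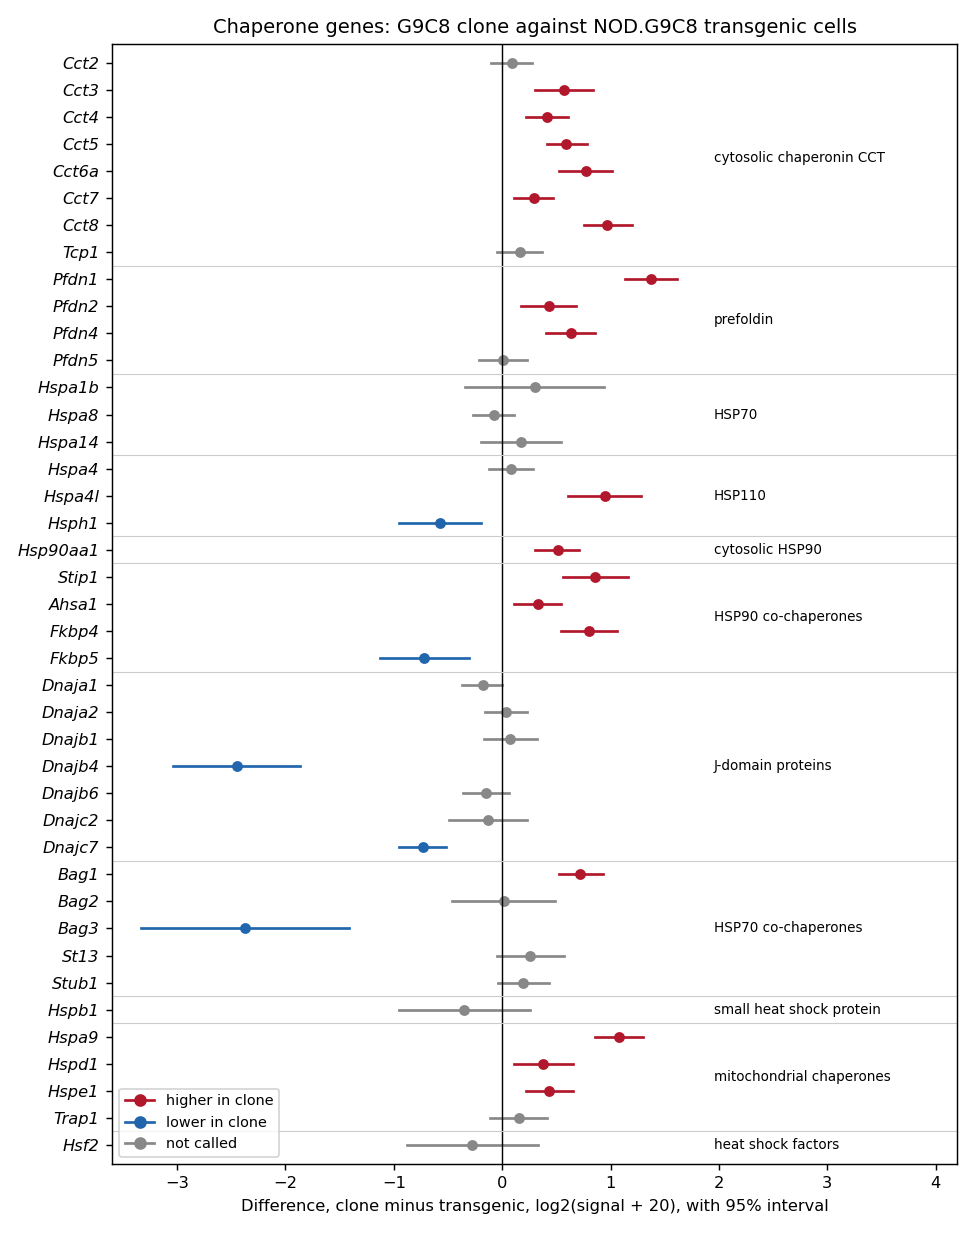
Difference between clone and transgenic cells for the 41 tested chaperone genes, grouped by role, on the log2(signal + 20) scale (x axis). Points are estimates from 3 clone and 2 transgenic arrays, bars are 95% confidence intervals of the limma fit, and colour gives the call; chaperonin, prefoldin and mitochondrial genes lie at or to the right of 0, and Dnajb4 and Bag3 lie farthest to the left.

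All 8 chaperonin subunits had a probe set, and 6 were higher in clone, none was lower and 2 were not called, with a median difference of 0.49. Cct8, the theta subunit, gave 5654.5, 5040.4 and 5911.4 in clone and 2686.8 and 2927.2 in transgenic cells, a difference of 0.97 (SE 0.10, adjusted p = 0.000109, limma). Cct6a, the zeta subunit, gave 6784.2, 6358.8 and 7377.2 against 3657.4 and 4377.5 (0.77, SE 0.11, adjusted p = 0.000624). Cct5, the epsilon subunit, gave 9437.1, 8868.7 and 9641.2 against 6188.6 and 6134.4 (0.59, SE 0.08, adjusted p = 0.000506). For each of these subunits the lowest clone array lay above the highest transgenic one. Smaller differences were called for Cct3 (0.57), Cct4 (0.41) and Cct7 (0.29). The beta subunit gene Cct2 gave 10334.3, 9959.0 and 10750.2 against 10043.5 and 9444.2, with overlapping groups (0.09, adjusted p = 0.42, with a 95% interval from -0.10 to 0.27). That probe set is of the type marked as cross-hybridizing; without such probe sets Cct2 was higher (0.23, adjusted p = 0.0493), as it was with its probe sets averaged (0.33, adjusted p = 0.0172; range over 15 alternatives 0.0172 to 0.906). For Tcp1, which encodes the alpha subunit, the clone arrays lay above the transgenic ones (6499.5 to 7626.0 against 6164.2 and 6446.8), by 0.16 (-0.05 to 0.37, adjusted p = 0.201). The subunits assemble into the same ring, and their differences on these probe sets spanned 0.09 to 0.97. Tested probe sets of a single subunit also spread, from 0.09 to 0.66 for Cct2 and from -0.38 to 0.57 for Cct3. They ran from 0.23 to 0.81 for Cct4, 0.29 to 0.82 for Cct7 and 0.77 to 0.88 for Cct6a. Unequal change of the subunits cannot therefore be told apart from the choice of probe set.

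Prefoldin genes also differed in size of change on their brightest probe sets. Pfdn1 gave 2570.0, 2173.4 and 2468.0 in clone and 911.1 and 921.3 in transgenic cells, a 2.58-fold higher level (difference 1.37, SE 0.11, adjusted p = 2.55e-05). On the brightest probe sets it was the largest rise among the 41 genes. Pfdn4 was higher by 0.63 (SE 0.10, adjusted p = 0.00122) and Pfdn2 by 0.43 (SE 0.11, adjusted p = 0.0147). Pfdn5, encoding a subunit also known as a MYC-binding protein, did not separate the groups: 6761.6, 8140.2 and 7530.1 in clone lay on both sides of 7517.1 and 7316.6 (0.01, -0.21 to 0.23, adjusted p = 0.959). The remaining prefoldin subunits, Vbp1 and Pfdn6, belong to the wider pathway list and are named after their values were seen; they were higher by 0.47 (adjusted p = 0.00243) and 0.42 (adjusted p = 0.0207).

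**Figure D2:**
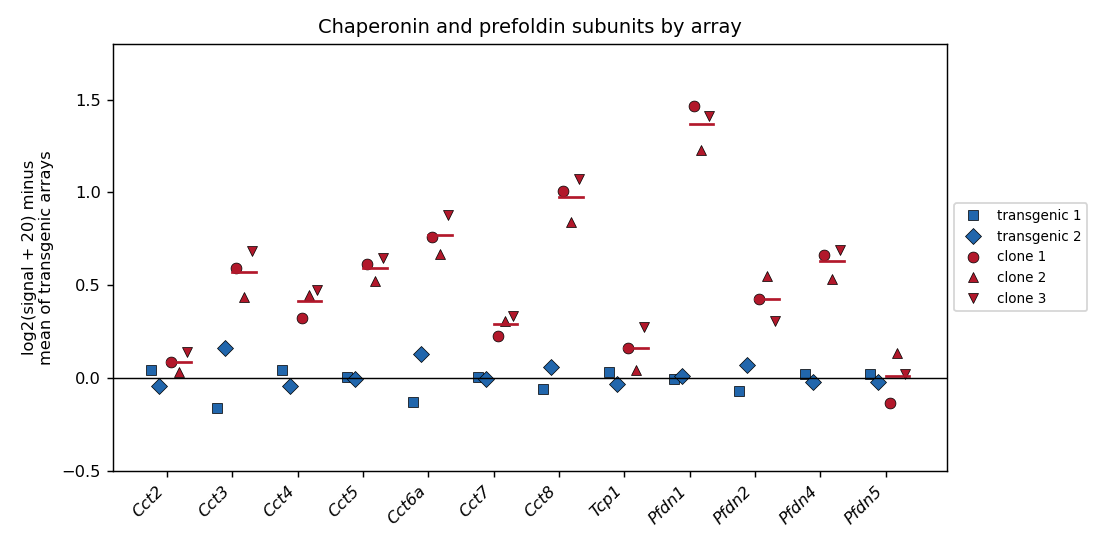
Signal of the 8 chaperonin and 4 prefoldin subunits on each array, as log2(signal + 20) minus the mean of the transgenic arrays (y axis). Blue symbols are the 2 transgenic and red symbols the 3 clone arrays, and the short red line is the clone mean; Pfdn1 and Cct8 stand highest, while Cct2 and Pfdn5 overlap the transgenic arrays.

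Calls of the smaller differences depended on single arrays. Without the first transgenic array, Cct3 (adjusted p = 0.0542), Cct7 (0.0929) and Pfdn2 (0.117) were no longer called, and Cct7 also lost its call without the second transgenic array (0.102) or the third clone array (0.0633). Over 15 alternatives the adjusted p of Cct3 ranged from 0.00297 to 0.109, that of Cct7 from 0.000855 to 0.148 and that of Pfdn2 from 0.0106 to 0.117. Cct4 was not called without cross-hybridizing probe sets (0.23, adjusted p = 0.0583; range 0.00366 to 0.0583), nor Cct8 when averaged with a probe set below the filter (0.39, adjusted p = 0.101; range 6.53e-05 to 0.101). Cct5, Cct6a, Pfdn1 and Pfdn4 kept their calls under all 15.

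The cytosolic HSP70 genes were not called by their brightest probe sets. The stress-inducible genes Hspa1a and Hspa1b, near-identical neighbours whose transcripts such probes may not tell apart, were dim in both groups. Hspa1b gave 167.9, 109.5 and 174.3 in clone and 94.2 and 143.1 in transgenic cells (0.30, -0.34 to 0.94, adjusted p = 0.424), and Hspa1a gave 33.6 to 59.8 and 38.0 and 42.8. Both groups overlapped, with the second clone array the lowest of the clone arrays for either gene. Hspa8, encoding the constitutive HSC70, gave 18046.5, 18774.5 and 18470.2 in clone and 20628.3 and 18389.8 in transgenic cells (-0.08, -0.27 to 0.11, adjusted p = 0.468). The highest signal of any probe set was 25836 to 30579 across the arrays. Hspa14, whose product works on nascent chains at the ribosome, gave 1532.5, 1458.3 and 2143.6 against 1532.0 and 1459.5 (0.17, adjusted p = 0.43).

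Other probe sets of these same genes gave another result. For Hspa8, the next in brightness after the first 2 (1420622_a_at) gave 18102.1, 20885.1 and 21580.7 in clone against 6876.0 and 8204.9 in transgenic cells (1.42, adjusted p = 2.74e-05 over all probe sets tested), and the next (1431182_at) was higher by 0.66 (adjusted p = 0.00309). Its 2 brightest are of the type marked as cross-hybridizing; without such probe sets Hspa8 was higher in clone by 1.42 (adjusted p = 2.2e-05), and its adjusted p ranged up to 0.987 over 15 alternatives. For Hspa14 a second probe set (1417095_a_at) gave 1835.0, 1735.2 and 2572.7 against 410.7 and 527.4 (2.07, adjusted p = 5.85e-05). These data do not tell which transcript forms each probe set detects, so the direction for Hspa8 and Hspa14 is that of a probe set and not of the gene.

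In all, 93 probe sets of the tested genes passed the filter, of which 38 were higher in clone, 11 lower and 44 not called; over all 22322 single-symbol probe sets above the filter, 21.1% were higher and 22.5% lower. Testing every probe set was chosen after seeing the data. Of 27 genes with several tested probe sets, 9 had the same call throughout, and 9 genes not called by the brightest one had another that was called. Cct3 alone had calls in both directions: 0.57 (1448178_a_at) and 0.54 (1459987_s_at) against -0.38 (1416024_x_at). Fkbp4 was higher on its brightest probe set (0.80), but 2 dim ones were not called (adjusted p = 0.138 and 0.209), with the brighter of them at 142.4, 27.7 and 139.1 in clone and 195.3 and 194.1 in transgenic cells. Averaged over its probe sets, the difference of Fkbp4 was -0.19 (adjusted p = 0.508; range over 15 alternatives 0.000465 to 0.508).

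**Figure D3:**
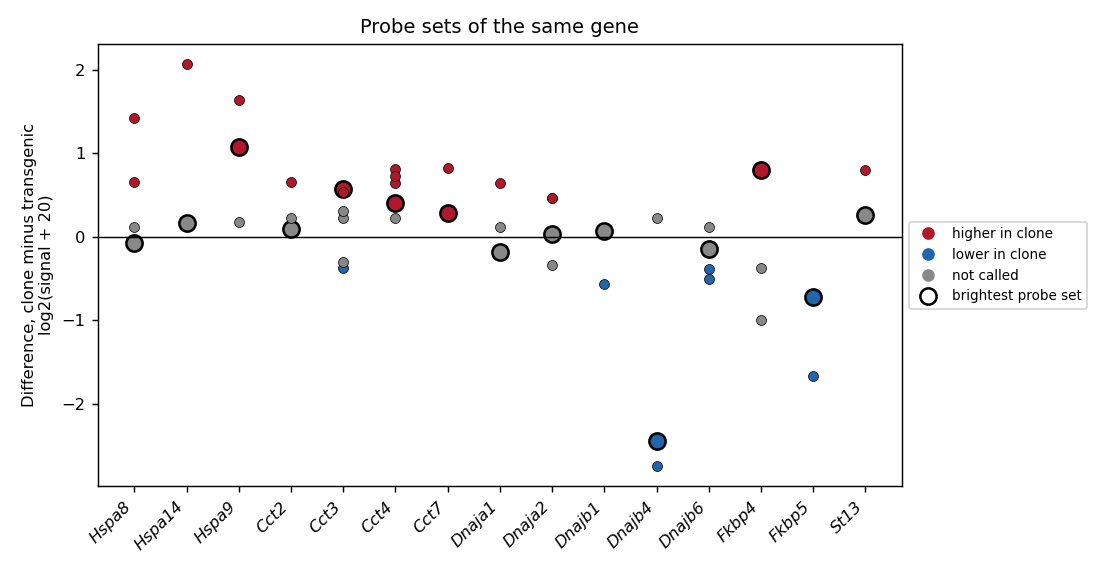
Differences of single probe sets above the filter for 15 chaperone genes, clone minus transgenic on the log2(signal + 20) scale (y axis). Each point is 1 probe set, large outlined points are the brightest of each gene, and colour gives the call over all probe sets; Hspa8 and Hspa14 carry uncalled brightest probe sets below others that were higher in clone.

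The HSP110 proteins, which release ADP from HSP70, were split. Hspa4l gave 784.9, 613.1 and 676.3 in clone and 363.4 and 332.1 in transgenic cells, a 1.93-fold higher level (0.95, SE 0.15, adjusted p = 0.00106). Hsph1, the heat-inducible HSP105, went the other way: 934.2, 649.0 and 798.3 against 1074.9 and 1289.7 (-0.57, SE 0.16, adjusted p = 0.0215). Neither gene's groups overlapped, though the Hsph1 call ended without the second transgenic array (-0.44, adjusted p = 0.16; range over 15 alternatives 0.012 to 0.16). Hspa4, the general family member, was not called (0.08, -0.12 to 0.28). Of 5 tested Hspa4l probe sets, 2 were higher and 3 not called, with overlapping groups on 1449010_at (0.30). Averaged over its probe sets, Hspa4l was higher by 0.56 (limma, adjusted p = 0.0188). The second Hsph1 probe set was not called (-0.35, limma, adjusted p = 0.0782 over all probe sets tested). Within arrays, Hspa4l minus Hspa4 was 0.86 higher in clone than in transgenic cells, with no overlap between the groups (exact permutation p = 0.2, two-sided, the smallest that 3 against 2 arrays allow).

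Of the cytosolic HSP90 pair, Hsp90aa1, the inducible alpha form, was analysed. It gave 13909.9, 13438.7 and 14767.3 in clone and 9260.4 and 10530.5 in transgenic cells (0.51, SE 0.09, adjusted p = 0.00211), and it kept its call under 15 alternatives. Of 4 co-chaperones tested, 3 were higher with it. Stip1 encodes HOP, the adaptor that passes clients from HSP70 to HSP90, and gave 1924.9, 1503.7 and 1793.3 against 880.0 and 1016.9 (0.86, SE 0.13, adjusted p = 0.00102). Fkbp4, encoding the immunophilin FKBP52, gave 1075.1, 1130.8 and 1241.3 against 635.2 and 662.2 (0.80, SE 0.11, adjusted p = 0.00065). Ahsa1, which stimulates the ATPase of HSP90, was higher by 0.33 (adjusted p = 0.0223), a call that ended without the first transgenic array (0.195), the first clone array (0.0593) or the third clone array (0.0507; range over 15 alternatives 0.0174 to 0.289).

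The fourth co-chaperone was lower. Fkbp5 encodes FKBP51, which is induced by glucocorticoids and acts against FKBP52 on hormone receptors, and gave 1481.0, 1049.9 and 1682.5 in clone and 2282.4 and 2274.4 in transgenic cells (-0.72, SE 0.18, adjusted p = 0.0116). A second probe set (1448231_at) gave 433.1, 365.3 and 526.7 against 1437.3 and 1425.7 (-1.67, adjusted p = 8.11e-05). Both probe sets were lower on every clone array, and the second clone array was the lowest on each. The call of the brightest one ended without the first (adjusted p = 0.0643) or the second transgenic array (0.0601; range over 15 alternatives 0.00148 to 0.0643). Within arrays, Fkbp5 minus Fkbp4 was 1.81 and 1.75 in transgenic cells and 0.45, -0.11 and 0.43 in clone, lower by a difference of -1.52 (exact permutation p = 0.2, two-sided). Over the 4 pairs compared within arrays, the smallest Benjamini-Hochberg adjusted p was 0.4.

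On their brightest probe sets, 2 of 7 J-domain genes were lower in clone and none was called higher. Over all genes tested, 21.7% were lower and 22.0% higher. Dnajb4, a heat-inducible partner of HSP70, gave 109.0, 206.0 and 115.0 in clone and 910.5 and 784.6 in transgenic cells. That is a 5.48-fold lower level (-2.45, SE 0.25, adjusted p = 0.000122), of rank 360 by size among all genes tested. Among the 41 genes it was the largest difference with a pseudocount of 20, but Bag3 exceeded it with a pseudocount of 1 (-2.98 against -2.61), with probe sets averaged or without the second clone array (-2.79 against -2.71). The second of the Dnajb4 probe sets (1439524_at) was not called (0.22). The dimmest (1431734_a_at) was lower (-2.75), with 23.4, 18.5 and 15.7 in clone against 251.5 and 234.8. These clone signals all lay below the filter level of 88.2. That probe set was therefore tested only through its transgenic signals and is no separate support. Averaged over all 3 probe sets, the difference was -1.66 (limma, adjusted p = 0.000284). Dnajc7, which binds both HSP70 and HSP90, gave 4132.5, 3993.8 and 3711.9 against 6959.7 and 6178.6 (-0.73, SE 0.09, adjusted p = 0.000382). The major cytosolic J-domain genes moved little on their brightest probe sets: Dnajb1, encoding HSP40, differed by 0.07 (-0.17 to 0.32), Dnaja2 by 0.03 (-0.16 to 0.23), Dnajb6 by -0.15 (-0.36 to 0.06), Dnajc2 by -0.13 (-0.49 to 0.23) and Dnaja1 by -0.18 (adjusted p = 0.106). Under quantile normalization Dnaja1 (-0.34, adjusted p = 0.00259) and Dnajb6 (-0.25, adjusted p = 0.0398) were called lower. Without cross-hybridizing probe sets, Dnaja2 was called higher (0.47, adjusted p = 0.00432). Single probe sets beside the brightest were higher for Dnaja2 (0.47 and 0.46, adjusted p = 0.0051 and 0.028) and Dnaja1 (0.65, adjusted p = 0.0016), and Dnajb1 had one that was lower (-0.57, adjusted p = 0.00299). Over 15 alternatives the adjusted p ranged from 0.00432 to 0.92 for Dnaja2, from 0.00259 to 0.376 for Dnaja1 and from 0.0398 to 0.521 for Dnajb6.

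Among the regulators that bind HSP70 directly, Bag1 and Bag3 moved in opposite directions. Bag1, a nucleotide exchange factor that also links HSP70 to the proteasome and to BCL2, gave 4204.0, 3759.6 and 3884.7 in clone and 2346.6 and 2422.2 in transgenic cells (0.72, SE 0.09, adjusted p = 0.000328). Bag3, which links HSP70 to autophagy, gave 18.7, 78.3 and 23.3 against 287.1 and 242.0. All clone arrays lay below both transgenic ones, with the second clone array above the other two. All 3 clone signals lay below the filter level of 88.2, so that the gene was tested only through its transgenic signals and no fold is given. Its difference was called lower (-2.37, SE 0.42, adjusted p = 0.00209), and its size moved with the pseudocount, from -2.98 with 1 to -1.86 with 50. Bag2, an inhibitor of the ubiquitin ligase CHIP, was not called (0.02, -0.46 to 0.49). Stub1, encoding CHIP, was higher on every clone array without a call (0.19, adjusted p = 0.161), as was St13, encoding the HSP70-interacting protein HIP (0.26, adjusted p = 0.157). With all probe sets averaged, St13 (0.61, adjusted p = 0.00591) and Stub1 (0.29, adjusted p = 0.0251) were called higher.

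The second transgenic culture had the higher myeloid sum (15901 against 9511), while Dnajb4 and Bag3 were higher in the first (910.5 against 784.6 and 287.1 against 242.0). The part of other cell types in these differences was not tested.

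**Figure D4:**
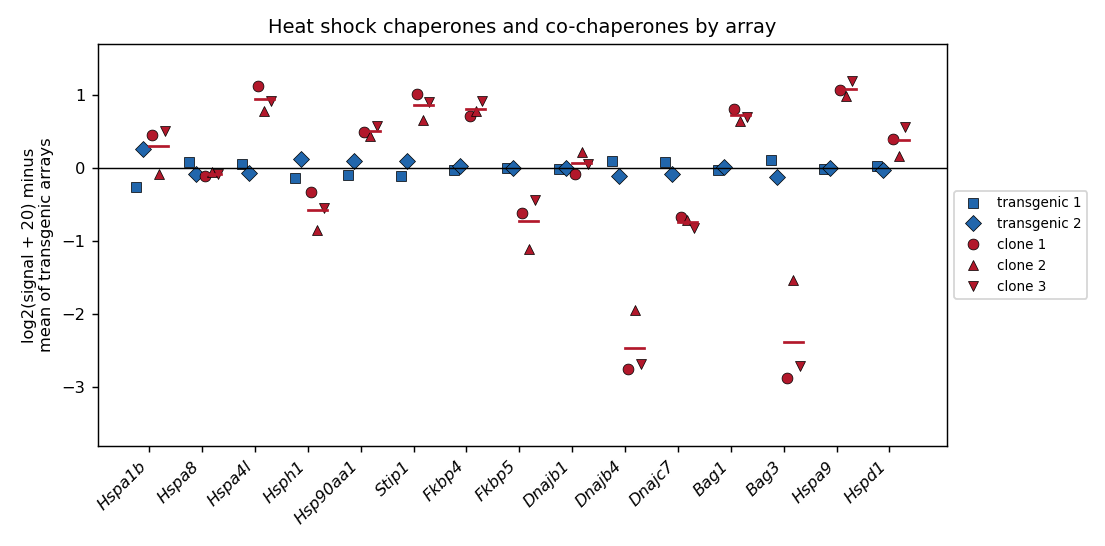
Signal of 15 heat shock chaperones and co-chaperones on each array, as log2(signal + 20) minus the mean of the transgenic arrays (y axis). Blue symbols are the 2 transgenic and red symbols the 3 clone arrays, and the short red line is the clone mean; Dnajb4 and Bag3 lie lowest, with the second clone array nearest to the transgenic ones, and Hspa9 and Hspa4l lie highest.

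Of 4 mitochondrial chaperones, 3 were higher in clone. Hspa9, encoding mortalin, the HSP70 that pulls proteins into the matrix, gave 3420.5, 3215.9 and 3730.2 in clone and 1612.3 and 1623.3 in transgenic cells. This is a 2.12-fold higher level (1.08, SE 0.10, adjusted p = 5.17e-05), and a second probe set (1418503_at) gave 1.64 (adjusted p = 0.000233). Another, 1447728_x_at, was not called, with overlapping groups (0.18, adjusted p = 0.448). Hspe1 and Hspd1 encode HSP10 and HSP60, lid and barrel of the mitochondrial chaperonin, and share the promoter region printed above. Hspe1 gave 7700.4, 7720.6 and 8294.9 against 6293.5 and 5419.0 (0.43, SE 0.09, adjusted p = 0.00566), and Hspd1 gave 5447.0, 4632.2 and 6122.1 against 4198.6 and 4032.6 (0.38, SE 0.12, adjusted p = 0.0309). Within arrays, Hspd1 minus Hspe1 was -0.56 on average in clone and -0.50 in transgenic cells, and the groups overlapped (exact permutation p = 0.8, two-sided). Trap1, the mitochondrial HSP90, was not called (0.15, -0.11 to 0.41). Hspd1 lost its call without any one array other than the second clone array (adjusted p from 0.0741 to 0.147; range over 15 alternatives 0.00365 to 0.147), and Hspe1 without the second transgenic array (0.067; range 0.00438 to 0.067).

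The small heat shock protein gene Hspb1, encoding HSP25, was dim and variable: 209.4, 147.6 and 293.6 in clone and 294.5 and 250.2 in transgenic cells (-0.35, -0.95 to 0.26, adjusted p = 0.326). Hsf2, a heat shock factor, gave 109.9, 139.3 and 88.8 against 119.7 and 160.5 (-0.28, -0.88 to 0.33, adjusted p = 0.434). The groups overlapped for both genes. Among the 18 genes not called, the half-width of the 95% interval ran from 0.18 to 0.64, and on those probe sets each interval lay within -1 and 1. The bound is that of the brightest probe set: 9 of these genes had another that was called, at 1.42 for Hspa8 and 2.07 for Hspa14.

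The second clone array was compared with the average of clone arrays 1 and 3. Its level was under that average for 27 of the 41 chaperone genes (65.9%, median -0.10), beside 48.2% of all genes tested (median 0.01). Clone arrays 1 and 3 were not counted in the same way, and every chaperonin subunit gave its highest clone signal on clone array 3. The count therefore does not set the second clone array apart from the others. Among the tested genes the second clone array was farthest below for Hspb1 (-0.68), Fkbp5 (-0.58), Hspa1b (-0.56) and Bag2 (-0.52), and it was above for Bag3 (1.26) and Dnajb4 (0.78). Between the transgenic arrays, the second was the higher for 22 of 41 (median 0.01).

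The wider folding pathway was examined through 9 lists with 141 further genes, of which 128 had a probe set and 118 were tested. Of these, 47 were higher in clone, 19 lower and 52 not called, with a median difference of 0.22, next to the 22.0% and 21.7% of all genes.

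Among 7 partners of the chaperonin and prefoldin, 5 rose, 1 fell and 1 was not called. They were led by Pdcl3 (3272.8, 3127.2 and 3513.9 in clone against 1445.3 and 1562.0; 1.13, SE 0.10, adjusted p = 4.11e-05) and Pdcl (0.65, adjusted p = 0.000714), phosducin-like proteins that bind the chaperonin. Of 10 clients of the chaperonin, tubulins and actins, 4 rose and 1 fell, with 5 not called. Tubb2a (1147.2, 711.5 and 1062.6 against 348.2 and 317.3; 1.47, adjusted p = 0.00054) and Tuba1a (0.90, adjusted p = 0.000285) led them, both on probe sets of the cross-hybridizing type in families of close sequence. The 7 cofactors that fold tubulin after the chaperonin held 4 higher and 1 lower gene. Tbcd was higher (0.66, adjusted p = 0.0124), and Tbcel, a tubulin-destabilising relative, was lower (569.8, 495.7 and 427.1 against 1544.6 and 1497.1; -1.58, adjusted p = 4.99e-05).

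Of 17 further HSP90 co-chaperones, 9 rose, 3 fell and 5 were not called. The largest differences were those of Cdc37l1, a relative of the kinase adaptor CDC37 (795.1, 1149.7 and 701.8 against 2022.9 and 1817.5; -1.13, adjusted p = 0.00167), and of the ATPase gene Ruvbl1 (0.93, adjusted p = 0.000785). Of 29 further J-domain genes, 8 rose, 5 fell and 16 were not called, near the 22.0% and 21.7% of all genes. Dnajb13 (1488.5, 1621.4 and 1638.3 against 446.7 and 542.4, a difference of 1.64, adjusted p = 2.02e-05) and Dnajc21 (1.08, adjusted p = 0.000105) rose most. Of 10 HSP70 relatives and regulators, 4 rose and 2 fell, among them the exchange factor gene Hspbp1 (0.81, adjusted p = 0.000264) and the HSP70 relative Hspa13 (-0.44, adjusted p = 0.0397).

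Among 10 other mitochondrial chaperones and proteases, 4 rose and 1 fell. The matrix protease genes Lonp1 (763.3, 727.9 and 672.2 against 338.2 and 438.1; 0.87, adjusted p = 0.00172) and Clpp (0.77, adjusted p = 0.000592) led them. The 17 chaperones of the endoplasmic reticulum held 7 higher, 2 lower and 8 uncalled genes. They included Manf (6527.5, 5709.5 and 6725.0 against 2860.3 and 2932.5; 1.12, adjusted p = 4.42e-05) and Sil1, the exchange factor of BiP (1.04, adjusted p = 0.00088). Of 11 small heat shock proteins and stress-induced genes, 2 rose, 3 fell and 6 were not called, near the 22.0% and 21.7% of all genes. Hmox1, encoding heme oxygenase 1, gave 16.2, 13.1 and 59.1 in clone and 585.2 and 912.6 in transgenic cells and was called lower (adjusted p = 0.000101). Its clone signals all lay below the filter level of 88.2, so that it was tested only through its transgenic signals, and the fitted difference (-4.04) depends on the pseudocount. It was higher in the culture with the higher myeloid sum; the part of myeloid cells in it was not tested. Serpinh1, a collagen chaperone of the endoplasmic reticulum, was lower too (-1.52, SE 0.49, adjusted p = 0.0336), on a probe set of the cross-hybridizing type. It gave 34.0, 167.4 and 149.3 in clone against 334.2 and 310.5, so that the first clone array, below the filter level, weighs on the size.

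**Figure D5:**
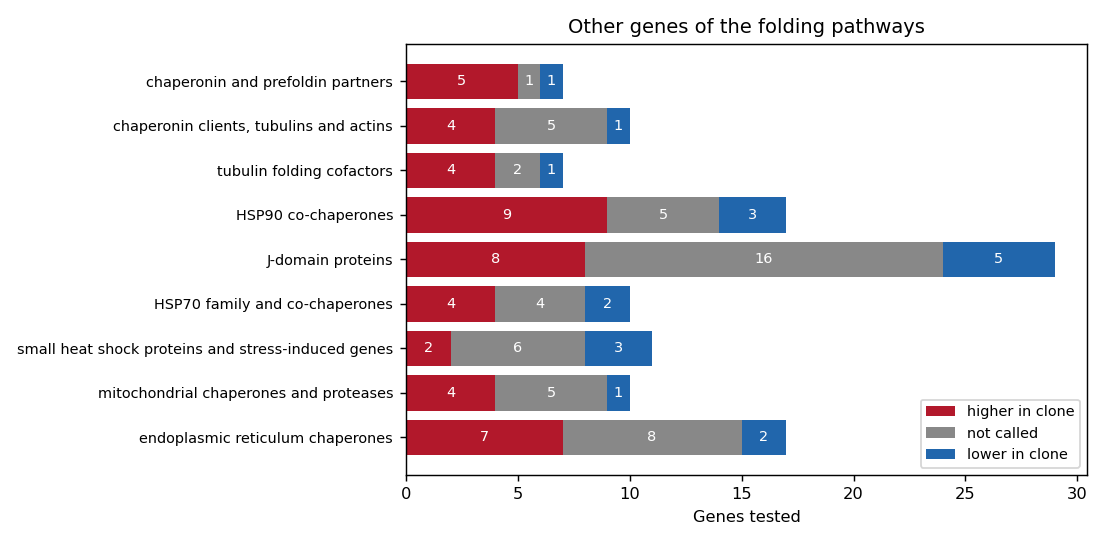
Number of tested genes called higher in clone, not called, or called lower in clone (x axis) in 9 lists of further folding genes (rows). Numbers inside the bars are gene counts at an adjusted p under 0.05 (limma, 3 clone and 2 transgenic arrays); the partners of the chaperonin and prefoldin show 5 higher and 1 lower of 7, and the small heat shock proteins and stress-induced genes 2 higher and 3 lower of 11.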

How the data were processed

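Total RNA (8 µg) of 5 cultures was labelled with biotin and hybridised to one-colour Affymetrix arrays, per the labels' protocols. The deposited values are linear array intensity per probe set from GCOS, per the submitters' processing notes, with version not given; the 2% trimmed mean is 500 on every array, so the authors had scaled them and they were used as deposited. No detection calls were used, and precision is limited by how few arrays there are. Of 45101 probe sets, 64 are controls, 34945 have 1 gene symbol, 932 several and 9160 none in the platform annotation.

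Values were analysed as log2(signal + 20). Probe sets under the 40th percentile of mean signal (88.2) were left out. Differences were fitted over 12446 genes in limma 3.58.1 (R 4.3.3; lmFit, eBayes with trend, two-sided, 8.36 total degrees of freedom) with Benjamini-Hochberg adjustment over all of them, and called at an adjusted p under 0.05. The script was tested on simulated data. Pairs of genes were compared within arrays by exact permutation; 1 more planned pair needed Hsp90ab1, which was not analysed here. Members and lists were chosen with earlier results of these data known. All members are described; other lists name their 2 largest called differences. Groups come from the sample titles; the labels describe separate vials and mice. Figures used matplotlib 3.10.9.

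Alternatives were quantile normalization, pseudocounts of 1 and 50, no filter, a filter at the 60th percentile, the mean over probe sets, no cross-hybridizing probe sets, eBayes without trend or robust, a replicate block, and each array left out.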

Additional observations from a re-analysis of the deposited data

How the results depend on the processing

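Over 15 alternatives, between 13 and 20 of the chaperone genes were called higher in clone (18 in the main analysis) and between 3 and 7 lower (5). Leaving out 1 array gave 13 to 18 higher and 3 to 5 lower, with the fewest lower, 3, without the second transgenic array; there, a lone transgenic array is assumed to vary like the clone arrays. The median difference, 0.19, was 0.33 with the mean over probe sets and 0.13 to 0.27 with 1 array left out. Of the 23 called genes, 12 kept direction and call under every alternative that could be run (9 higher, 3 lower), 8 lost the call when some array was left out, and 1, Fkbp4, changed direction (-0.19 with the mean over probe sets). At the 60th percentile Bag3, one of those 3 lower genes, Hspa1b and Hsf2 were not tested.

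With the replicate number as a block, 14 genes were higher and 5 lower; Ahsa1, Cct4, Cct7 and Hspd1 lost their calls. The labels give both groups replicate numbers without saying that they mark a shared batch. Deviations of same-numbered arrays correlated at -0.03 and -0.08 over genes. The deviations of the 2 transgenic arrays are mirror images of each other, so these values cannot decide whether a batch was shared.

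Differences near 0 changed sign without a call in most cases, and the cause was not tested. Under quantile normalization these were Cct2 (-0.01), Dnaja2 (-0.13) and Pfdn5 (-0.16); with the mean over probe sets Dnaja1 (0.20), Dnajb1 (-0.25), Hsf2 (0.34), Hspa4 (-0.09) and Hspa8 (0.53, adjusted p = 0.00165); without cross-hybridizing probe sets Hspa8 (1.42); and with the block Bag2 (-0.11) and Hspa14 (-0.00). With 1 array left out, Bag2 ranged from -0.11 to 0.19, Hspa8 from -0.16 to 0.00, Pfdn5 from -0.06 to 0.08, Dnaja2 from -0.01 to 0.08, Dnajb1 from -0.01 to 0.14, Dnajc2 from -0.28 to 0.00 and Hspa14 from -0.00 to 0.27. With the mean over probe sets Cct8 (0.39, adjusted p = 0.101), Cct3 and Ahsa1 were no longer called; the second probe set of Cct8 is dim.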
